A study of Mus musculus with 40 samples.

Results

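The matrix proteases of the MMP and ADAMTS families, the ADAMTS-like proteins and their TIMP inhibitors were followed in the H3K27ac peaks of white preadipocytes that were induced to brown. All protein-coding genes of the mouse annotation GENCODE M21 whose symbol is Mmp, Adamts, Adamtsl or Timp followed by a number were taken, which gave 50 of 21938 protein-coding genes. These were 22 MMP, 19 ADAMTS, 5 ADAMTS-like and 4 TIMP genes. A peak of H3K27ac, the acetylation of histone H3 at lysine 27 that marks active promoters and enhancers, lay within the gene or the 5 kb before it in at least 1 library for 46 of the 50. Mmp7, Mmp10, Mmp20 and Mmp21 had no peak in any library. A peak in at least 3 of the 24 libraries was required for testing and was found for 42 members, and for 15204 genes in all. Mmp13, Mmp16, Adamts8 and Adamts18 each had a peak in 1 library and were not tested. Mmp1a is listed as a polymorphic pseudogene in that annotation and was left out.

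The cells were preadipocytes from the inguinal white fat of C57BL/6 mice, 8 to 12 weeks old by the study's methods, either wild type (WT) or lacking both nucleosome-binding proteins HMGN1 and HMGN2 (Hmgn1-/- and Hmgn2-/-, DKO). Confluent cultures of both genotypes received insulin, dexamethasone, IBMX, T3 and rosiglitazone for 4 days and then insulin and T3 alone. H3K27ac was profiled before induction (day 0) and on days 3, 6 and 9, with 3 libraries for each of the 8 groups. The knockout was present in every cell of the mouse and not in fat alone, and the labels did not say whether the 3 libraries of a group came from separate animals, so p-values measure the spread between these libraries.

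Fat tissue is held in a matrix of collagens, proteoglycans and microfibrils that is rebuilt when preadipocytes round up and fill with lipid. MMPs are zinc proteases that cleave collagens and other matrix proteins, ADAMTS enzymes trim proteoglycans and procollagens, and ADAMTS-like proteins share their matrix-binding parts but have no protease domain. TIMPs block the active site of MMPs and of some ADAMTS enzymes.

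The members include 9 Mmp genes that lie side by side within a short stretch of chromosome 9, and several genes of this type are textbook targets of the transcription factor AP-1. The 110 bases before the RefSeq start of 5 of these genes are shown because each holds this motif. The sequences come from the RefSeq promoter table of build GRCm38.p6 and are written 5′ to 3′ on the gene's strand, with a match to TGACTCA or TGAGTCA, the same site read on either strand, in capitals.
Mmp13: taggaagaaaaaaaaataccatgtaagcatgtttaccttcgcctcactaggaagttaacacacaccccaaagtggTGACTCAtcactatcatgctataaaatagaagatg
Mmp1b: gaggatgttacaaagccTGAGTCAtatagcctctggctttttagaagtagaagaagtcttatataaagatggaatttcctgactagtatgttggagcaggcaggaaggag
Mmp3: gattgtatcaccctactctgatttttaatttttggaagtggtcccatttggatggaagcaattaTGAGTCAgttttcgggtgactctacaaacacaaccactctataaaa
Mmp10: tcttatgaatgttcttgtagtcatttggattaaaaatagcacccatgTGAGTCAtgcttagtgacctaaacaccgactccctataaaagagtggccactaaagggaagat
Mmp7: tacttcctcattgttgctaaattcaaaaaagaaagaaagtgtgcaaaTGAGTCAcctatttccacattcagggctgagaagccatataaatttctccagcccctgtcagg
They lie at chr9:7272404-7272513 for Mmp13, chr9:7388027-7388136 on the minus strand for Mmp1b, chr9:7445712-7445821 for Mmp3, chr9:7502232-7502341 for Mmp10 and chr9:7691980-7692089 for Mmp7. The first base of the match stood 35 bases before that start in Mmp13, 46 in Mmp3, 63 in Mmp10 and in Mmp7, and 93 in Mmp1b. Of 35 members with an entry in the table, 6 had a match within the 250 bases before to 50 after a listed start. Counted by entry, 5.2% of all 32851 promoters of that length had one. The members hold 38 entries, so these figures differ in unit. All 6 genes are neighbours in the chromosome 9 stretch, and no member outside it had a match. The sixth was Mmp12, where the match lies before a second listed start inside the gene and the entry at the gene start holds none. A match is a description of letters and not a measured site. Of the 5 genes shown, only Mmp3 had peaks in most libraries.

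Windows of 200 bases centred on a summit are shown for 3 members with a region that was called in many more WT than DKO libraries. The regions were chosen for this excess, so it carries no test. Peaks of the 24 lists that overlapped were joined into merged regions, and for each gene the region with the largest excess of WT over DKO libraries was taken.
Mmp3: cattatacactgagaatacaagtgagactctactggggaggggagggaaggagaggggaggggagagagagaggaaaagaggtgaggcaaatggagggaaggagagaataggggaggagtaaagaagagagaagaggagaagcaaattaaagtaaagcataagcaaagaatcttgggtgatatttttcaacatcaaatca
Mmp2: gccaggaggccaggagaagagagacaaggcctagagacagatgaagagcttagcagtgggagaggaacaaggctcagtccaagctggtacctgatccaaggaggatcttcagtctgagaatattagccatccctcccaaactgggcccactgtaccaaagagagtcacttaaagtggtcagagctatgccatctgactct
Adamtsl1: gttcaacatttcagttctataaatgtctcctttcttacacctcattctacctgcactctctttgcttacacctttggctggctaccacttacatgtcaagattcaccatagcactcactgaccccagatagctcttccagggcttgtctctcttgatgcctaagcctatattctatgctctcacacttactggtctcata
These windows of build GRCm38 are written on the gene's strand. The Mmp3 window, at chr9:7445089-7445288, was centred 0.63 kb before the gene start and its region had a peak in 11 of the 12 WT and in 3 of the 12 DKO libraries. The Mmp2 window, at chr8:92833782-92833981, was in an intron 6.59 kb past the start, with 11 WT and 5 DKO libraries. The Adamtsl1 window, at chr4:86306465-86306664, was in an intron 792.39 kb past the start, with 8 WT and 0 DKO libraries. None of the 3 windows held the AP-1 letters, which occurred in 3.83% of 679 merged regions of the members and in 3.49% of all 169358 regions within the same 200 bases around the summit.

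Libraries differed in ways that touch these results. They held 47448 to 115923 peaks over 20.7 to 96.4 Mb. DKO day 6 replicate 3 was the lowest in both and had a peak in 28 members, the fewest of all libraries. It enters every day 6 mean below and was not left out on its own. DKO day 0 replicate 2 had wide peaks, with a median of 1076 bp against 313 to 376 bp in the other 23 libraries, and WT day 3 replicate 3 was shallow, with a background of 4.50 reads per kb against 8.61 to 12.9. On day 6 the covered length was 57.5 ± 2.60 Mb in WT and 30.8 ± 8.76 Mb in DKO (SD, n = 3), a difference of -46.4%, and on day 9 it was 16.4% more in DKO. Hmgn2 had a peak in 12 of 12 WT and 0 of 12 DKO libraries, while Hmgn1 had a peak in 12 of 12 libraries of both genotypes, which does not check its deletion. A peak list records where the mark passed a threshold, so fewer cells that carry the mark and less of it per cell cannot be told apart. Macrophage markers were also present. On day 0 their summed length ranged from 30.9 to 34.9 kb across WT libraries and from 42.6 to 80.2 kb across DKO libraries. Of the 8 macrophage markers, 7 lay higher in DKO on day 0 without overlap, against 18.4% of all genes. On day 9 the sums spanned 7.71 to 15.1 kb. No WT library then exceeded 10.6 kb and no DKO library fell below 11.2 kb. The genotypes overlapped in this sum on days 3 and 6. Each library had a peak in 6 to 8 of the 8 markers. Endothelial markers summed to 6.65 to 16.1 kb on day 0, when WT libraries reached at most 7.27 kb and DKO libraries at least 7.36 kb. Their sum was 1.17 to 5.72 kb on later days. On day 6 it lay lower in DKO, where no library exceeded 2.38 kb and no WT library fell below 4.02 kb. The genotypes overlapped in the endothelial sum on days 3 and 9. Each library had a peak in 1 to 5 of the 7 endothelial markers, with Cldn5 and Tie1 at 0 in all 24 libraries. The part of these cells in the results below was not tested.

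The members together had a lower mean peak length in DKO cells on days 3 and 6, and their share of the covered length lay lower in DKO on all 4 days. Length under peaks, summed over the 50 genes, was 221 ± 21.8 kb in WT and 256 ± 102 kb in DKO on day 0, and 231 ± 60.1 against 157 ± 27.6 kb on day 3. It was 307 ± 8.84 against 118 ± 39.1 kb on day 6, a difference of -61.6%, and 261 ± 31.7 against 276 ± 18.4 kb on day 9 (SD, n = 3 each). As a percentage of the covered length of each library, the members took 0.437 ± 0.00808 in WT and 0.379 ± 0.00654 in DKO on day 0, 0.518 ± 0.00761 and 0.449 ± 0.00823 on day 3, 0.534 ± 0.00865 and 0.378 ± 0.0237 on day 6, and 0.471 ± 0.00408 and 0.428 ± 0.00690 on day 9. The libraries of the genotypes did not overlap in this share on any day. The library with wide peaks and the shallow library lay with their groups. DKO day 0 replicate 2 had a share of 0.385% and WT day 3 replicate 3 a share of 0.523%. DKO day 6 replicate 3, with the fewest peaks, had the lowest share of all libraries, 0.351%. Adamts2, Adamts12 and Adamtsl1 made up 34.9 to 44.2% of the members' length by group. With overlapping spans counted once, the day 6 share was 0.531 ± 0.00842 in WT and 0.375 ± 0.0246 in DKO over all members. On that basis and without these 3 genes it was 0.30 ± 0.00834 and 0.239 ± 0.00308 on day 6, and 0.260 ± 0.00761 and 0.246 ± 0.0106 on day 9, when the libraries overlapped.

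**Figure D1:**
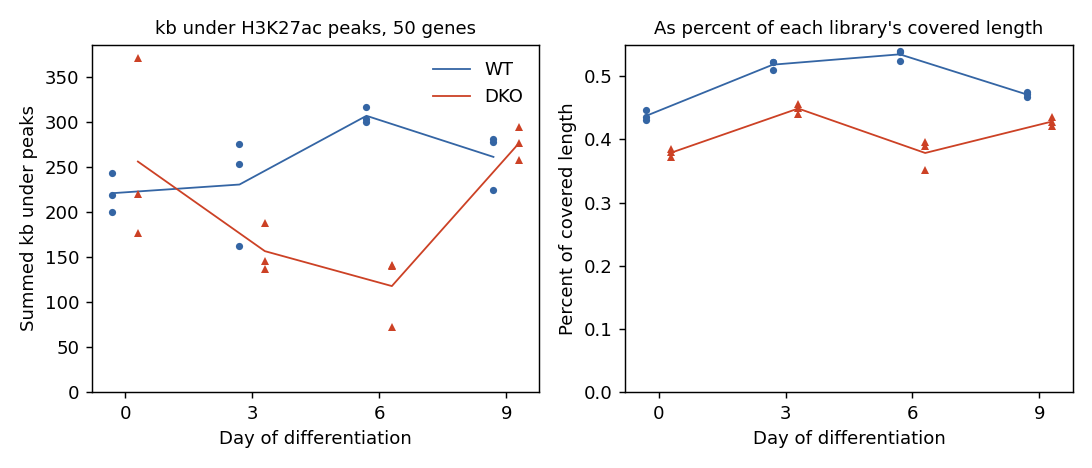
Summed length under H3K27ac peaks of the 50 genes in kb (left) and the same length as a percent of the library's covered length (right), by day of differentiation. Each circle is a WT library and each triangle a DKO library, 3 per group, and lines join group means. WT and DKO libraries lie apart in the right panel on each day, with the widest gap on day 6.

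Across the 4 days, the tested members leaned toward less peak length in DKO, but none passed the adjusted test on the unscaled length. The median difference of DKO minus WT was -0.426 kb for the 42 members and -0.00708 kb for all 15204 genes, and 32 members were lower and 10 higher in their mean. By an exact permutation test, two-sided, with genotype permuted within each day and p adjusted with the Benjamini-Hochberg method over all tested genes, 0 of 42 members passed in either direction, while 0.125% of all genes were called lower and 0.0263% higher in DKO. At an unadjusted exact p under 0.05, 11 members (26.2%) were lower and 0 higher, against 5.91% and 3.95% of all genes. The 11 include Mmp1b, which met the filter on peaks through WT libraries alone, so its direction was set by the filter. When length was scaled to the covered length of the library, 14 members (33.3%) passed the adjusted test as lower in DKO and 1, Mmp11, as higher, against 5.69% and 9.19% of all genes. The scaling moved the median difference of all genes to 0.108 kb. The 14 were Mmp2, Mmp3, Mmp8, Adamts2, Adamts5, Adamts6, Adamts10, Adamts12, Adamts14, Adamts16, Adamtsl1, Adamtsl3, Timp1 and Timp2. Without DKO day 0 replicate 2, and on the unscaled length, Mmp3, Adamts16, Adamtsl1 and Adamtsl3 passed as lower, and 1.30% of all genes did. With the best 20000 peaks of each library, 0 of 29 tested members passed in either direction. Of all genes, 0.0662% then passed as lower and 0.0414% as higher, so the members called depend on how library size was handled.

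By day, the genotypes separated most on day 6. Here 33 of 42 members (78.6%) had all 3 DKO libraries below all 3 WT libraries and 0 had them above, against 59.6% and 0.0855% of all genes. With 3 against 3 libraries the smallest exact permutation p is 0.1, so this is a count of genes whose libraries did not overlap. All 40 members with any length on day 6 had a lower DKO mean, as did 95.9% of all genes. DKO length was a median 27.1% of WT plus DKO length in the members and 39.0% in all genes, where 50% would be equal. Scaled to covered length, 19 members lay lower and 5 higher on day 6, against 14.4% and 37.8% of all genes. Of the 33 members, 25 kept their sign under this scaling, and Mmp11, Mmp19, Mmp27, Adamts1, Adamts4, Adamts9, Adamtsl4 and Adamtsl5 turned to a higher DKO mean. On day 3, 9 members lay lower without overlap and 0 higher, against 10.8% and 0.862% of all genes, and without WT day 3 replicate 3 the count was 32, beside 51.6% of all genes. On day 0, 3 lay lower and 2 higher, against 0.704% and 18.4%, and without DKO day 0 replicate 2 the counts were 13 and 2, beside 9.39% and 18.7%. The lower members of day 0 include Mmp1b, whose peaks were in WT libraries alone, so its call carries no weight. Scaled, 11 lay lower and 2 higher on day 0, against 10.6% and 10.9%. On day 9, 0 lay lower and 6 higher, against 2.08% and 29.3%. The balance on day 9 turned when length was scaled, with 8 lower and 2 higher against 13.5% and 13.4% of all genes, and without replicate 1 of both genotypes it was 11 lower and 7 higher against 14.6% and 34.2%.

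**Figure D2:**
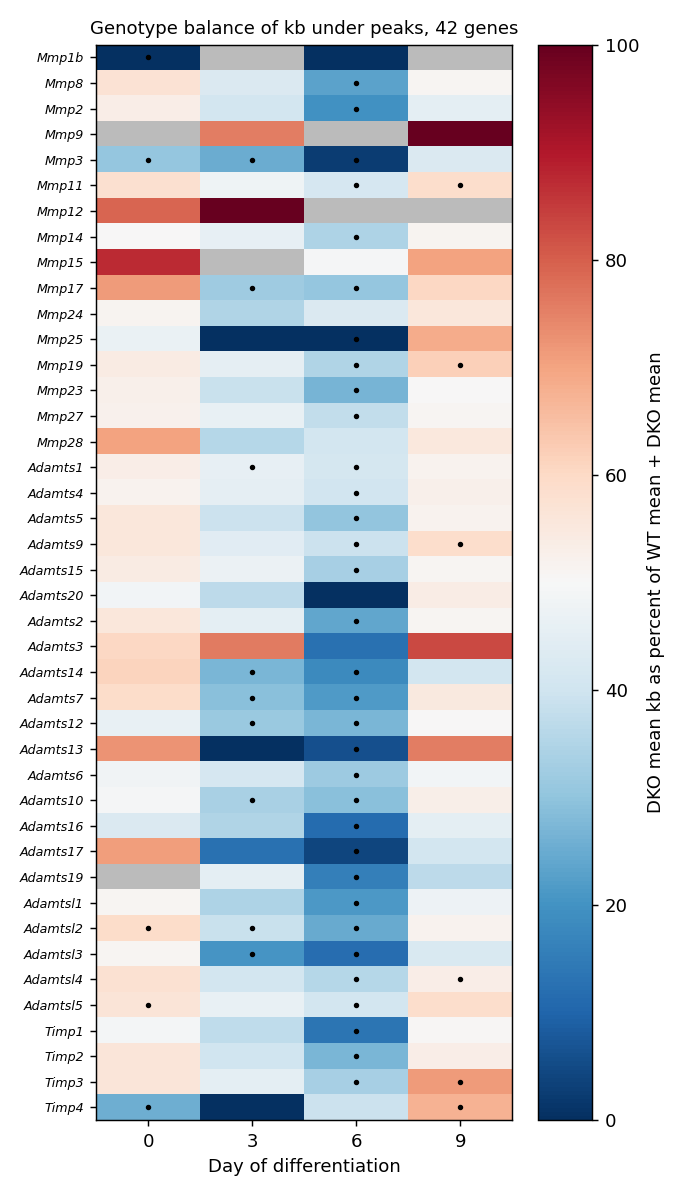
Mean DKO length under peaks as a percent of the WT mean plus the DKO mean (colour, blue below and red above 50), for each of the 42 tested genes (rows) and each day (columns). A dot marks genes whose 3 WT and 3 DKO libraries did not overlap, and grey marks no peak in either genotype. Day 6 is blue in nearly every row and holds 33 of the dots.

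Among the gelatinases, which cleave denatured and basement membrane collagen, Mmp2 (chr8:92827291-92853420 in GRCm38) had its longest peak cover in WT cells on day 6 and its shortest in DKO cells on the same day. Its length was 5.54, 8.16 and 7.64 kb in the WT and 6.75, 11.01 and 6.72 kb in the DKO libraries of day 0. On day 3 it was 14.3, 14.8 and 9.22 kb in WT and 7.16, 10.4 and 8.75 kb in DKO. On day 6 it was 18.3, 18.1 and 18.1 kb in WT and 5.41, 5.87 and 2.0 kb in DKO. The genotypes overlapped on days 0 and 3 and stood well apart on day 6, where the mean difference was -75.6%. On day 9 they overlapped again, at 7.0, 9.65 and 8.96 kb in WT and 7.53, 7.44 and 5.95 kb in DKO. Over the 4 days the difference was -4.56 kb (exact permutation p = 0.00816, adjusted p = 0.286), and -3.52 kb when scaled (adjusted exact permutation p = 0.00232). Mmp9, the other gelatinase, had traces in 2 WT and 4 DKO libraries, none over 1.15 kb.

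Mmp3 (chr9:7445822-7455975), the stromelysin that also activates other MMP proenzymes, lay lower in DKO on days 0, 3 and 6. WT libraries held 1.21, 1.11 and 1.16 kb on day 0, 3.17, 2.90 and 1.72 kb on day 3, and 4.22, 3.96 and 4.47 kb on day 6. DKO libraries held 0.160, 0.887 and 0.494 kb on day 0, 0.579, 1.33 and 0.702 kb on day 3, and 0.159, 0.167 and 0 kb on day 6. Every DKO library lay below every WT library on these 3 days, and the mean difference on day 6 was -97.4%. On day 9 WT held 0.286, 0.878 and 1.30 kb and DKO 0.553, 0.614 and 0.686 kb, within the WT range. The difference over the 4 days was -1.67 kb (exact permutation p = 1.88e-04, adjusted p = 0.0731). It passed without DKO day 0 replicate 2 (adjusted exact permutation p = 0.0258) and when scaled (adjusted p = 0.00306). Mmp11, a stromelysin that is activated inside the cell by furin, was low on day 3 in both genotypes. It had 4.28 to 4.98 kb in WT on day 0, 0.296 to 1.36 kb on day 3, 4.38 to 4.82 kb on day 6 and 3.43 to 4.48 kb on day 9. DKO held 4.52 to 9.59, 0.281 to 1.397, 2.27 to 3.90 and 4.63 to 6.54 kb on the same days. DKO lay below WT on day 6 and above it on day 9. When Mmp11 was scaled to covered length, DKO lay above WT on day 6 without overlap (1.34 kb), and the day 9 libraries overlapped (0.840 kb). Its span overlapped Smarcb1, Chchd10, Gm867 and Vpreb3.

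The collagenases, which cut intact fibrillar collagen, were less covered. Mmp8 held 3.68, 3.92 and 4.50 kb in WT and 1.30, 1.38 and 1.02 kb in DKO on day 6, without overlap, and shared a merged region with its neighbour Mmp27 that was called in 24 of 24 libraries. Mmp1b had a peak in 5 WT libraries and 0 DKO libraries, with 0.157, 0.822 and 0.547 kb in WT on day 0. It was tested only because of its WT peaks. Of the membrane-type MMPs, which act at the cell surface, Mmp14 is the activator of proMMP2 and was the longest. It held 12.4, 12.5 and 12.8 kb in WT and 7.04, 8.36 and 4.68 kb in DKO on day 6, a difference of -46.7% and without overlap. Scaled to covered length this difference of Mmp14 was -0.0211 kb, and the libraries overlapped. The span of Mmp14 overlaps Mrpl52. Mmp17 and Mmp25, both tethered by a lipid anchor, also lay lower in DKO on day 6, at 0.208 against 0.471 kb for Mmp17 and with no DKO peak for Mmp25 against 0.318 kb in WT. When scaled, the day 6 libraries of Mmp17 overlapped (-0.0625 kb) and those of Mmp25 stayed apart (-0.283 kb). Mmp12, the macrophage metalloelastase, had a peak in 5 day 0 libraries and in 1 of day 3.

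The hyalectan-cleaving ADAMTS enzymes, which cut versican and aggrecan, lay lower in DKO on day 6 without overlap in 5 of 6 tested members. Of all genes, 59.6% did so. Adamts5 (chr16:85856173-85901828), the main aggrecanase of mouse cartilage, held 10.9, 11.9 and 11.7 kb in WT and 5.54, 5.59 and 3.87 kb in DKO on day 6, a difference of -56.6%. On day 3 it held 10.5, 8.88 and 5.71 kb in WT and 4.65, 6.03 and 5.62 kb in DKO, with the shallow WT library inside the DKO range. On days 0 and 9 the genotypes overlapped, with means of 7.86 and 9.91 kb on day 0 and of 11.3 and 12.1 kb on day 9 in WT and DKO. Over the 4 days the Adamts5 difference was -1.67 kb (exact permutation p = 0.106, adjusted p = 0.615) and passed when scaled (-1.12 kb, adjusted p = 0.0112). Adamts15 held 15.0, 14.1 and 15.1 kb in WT and 8.71, 8.06 and 5.45 kb in DKO on day 6, apart from each other, with a scaled difference of -0.656 kb that overlapped. Adamts1, Adamts4 and Adamts9 turned to higher DKO means on day 6 when scaled, by 1.54, 1.86 and 1.15 kb.

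Of the procollagen N-proteinases, which trim the amino-terminal propeptide of fibrillar collagens, Adamts2 (chr11:50602084-50807573) carried the longest peak cover of all members. It held 62.3, 61.0 and 66.6 kb in WT and 24.6, 25.1 and 10.5 kb in DKO on day 6, a difference of -68.3%, and 64.6, 76.6 and 72.8 against 78.9, 73.1 and 69.9 kb on day 9. The libraries stood apart on day 6 and overlapped on day 9. Adamts14 was 3.61 ± 0.344 kb in WT and 0.802 ± 0.542 kb in DKO on day 6 (SD, n = 3) and also lay apart on day 3. Adamts12 (chr15:11064790-11349231), one of the enzymes that cleave cartilage oligomeric matrix protein, held 27.2, 30.5 and 15.8 kb in WT and 9.29, 14.6 and 10.1 kb in DKO on day 3. On day 6 it held 41.3, 41.1 and 44.2 kb in WT and 20.4, 18.1 and 8.20 kb in DKO, without overlap on either day. The difference of Adamts12 over the 4 days was -10.6 kb (exact permutation p = 0.00373, adjusted p = 0.232), and scaled to covered length it was -8.18 kb (adjusted exact permutation p = 0.00138), lower on each of the 4 days without overlap. Adamts7, which cuts the same protein, was 5.80 ± 0.241 kb in WT and 1.59 ± 0.799 kb in DKO on day 6 and also lay apart on day 3, at 3.25, 4.32 and 2.11 against 0.976, 1.53 and 1.47 kb.

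Among the other ADAMTS genes, all 5 tested lay lower in DKO on day 6 without overlap, beside 59.6% of all genes. When scaled, the day 6 libraries of Adamts6 overlapped (-0.753 kb). Adamts16 held 6.81, 9.99 and 9.29 kb in WT and 4.47, 9.04 and 6.03 kb in DKO on day 0. It held 4.98, 4.87 and 4.69 kb in WT and 0.187, 1.69 and 0 kb in DKO on day 6, a difference of -87.1%. The genotypes overlapped on day 0 and stood apart on day 6, and when scaled they stood apart on all 4 days, with a difference of -2.71 kb (adjusted exact permutation p = 0.00138). Adamts17 was 3.19 ± 0.235 kb in WT and 0.132 ± 0.122 kb in DKO on day 6. The ADAMTS-like genes, whose products bind microfibrils or other matrix, lay lower in DKO on day 6 without overlap in 5 of 5, beside the same 59.6%. When scaled, Adamtsl4 and Adamtsl5 turned to higher DKO means on day 6, by 0.226 and 0.161 kb, the latter without overlap. Adamtsl1 (chr4:85514172-86428385) held 26.9, 26.9 and 29.1 kb in WT and 8.91, 9.31 and 4.15 kb in DKO on day 6, a difference of -73.0% with the libraries apart. Adamtsl3 was 1.96 ± 0.895 kb in WT and 0.501 ± 0.137 kb in DKO on day 3 and 1.76 ± 0.589 against 0.242 ± 0.0856 kb on day 6, with no overlap on either day. Adamtsl2 held 1.56, 1.89 and 1.36 kb in WT and 1.93, 3.08 and 2.02 kb in DKO on day 0, and Adamtsl5 between 0.857 and 0.883 kb in WT and between 0.903 and 1.56 kb in DKO. These were the members that lay higher in DKO on day 0, and Adamtsl5 turned to a lower DKO mean when scaled.

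**Figure D3:**
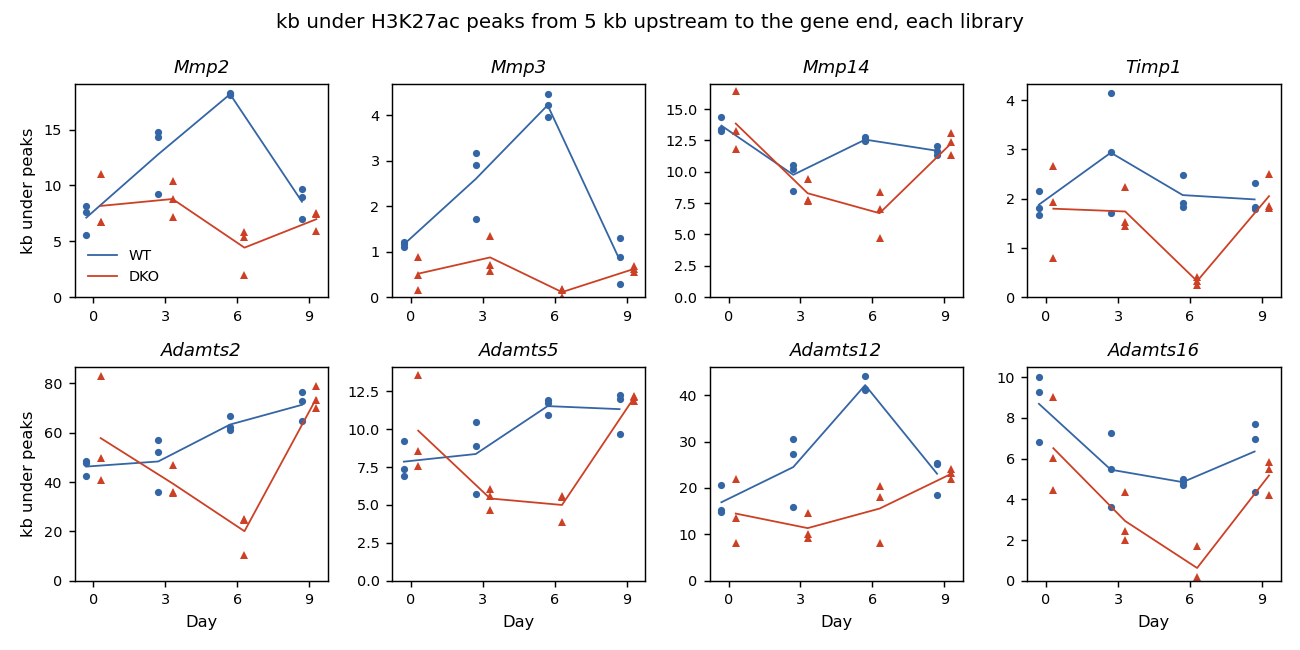
Length under H3K27ac peaks in kb (y axis, from 0) by day (x axis) for 8 genes. Circles are WT and triangles DKO libraries, 3 per group, and lines join group means. On day 6 all 3 DKO libraries lie below all 3 WT libraries in each panel, and on day 9 the genotypes overlap in each panel.

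Of the 4 inhibitors, 3 lay lower in DKO on day 6 and 2 lay higher on day 9 without overlap. Of all genes, 59.6% lay lower on day 6 and 29.3% higher on day 9. Timp1, the secreted inhibitor that is induced by growth factors, held 2.48, 1.83 and 1.91 kb in WT and 0.318, 0.408 and 0.246 kb in DKO on day 6, a difference of -84.4% with the libraries apart. On day 3 it held 2.95, 4.14 and 1.71 kb in WT and 1.45, 2.24 and 1.53 kb in DKO, which overlapped, and on day 9 the means were 1.99 and 2.05 kb. Timp2, which with Mmp14 takes part in proMMP2 activation, held 20.1, 19.3 and 20.3 kb in WT and 8.14, 8.80 and 5.44 kb in DKO on day 6, a difference of -62.5% with the libraries apart, and the day 9 libraries overlapped. Timp3, the matrix-bound inhibitor that also blocks ADAM17, held 1.15, 2.37 and 2.21 kb in WT and 4.59, 5.76 and 3.77 kb in DKO on day 9. The DKO libraries of Timp3 lay above the WT libraries on day 9 and below them on day 6, at 1.42, 1.397 and 0.698 against 1.89, 2.31 and 2.81 kb. Timp4, an inhibitor abundant in adipose tissue and heart, held 0.225, 0.381 and 0.421 kb in WT and 0.197, 0 and 0.155 kb in DKO on day 0. On day 9 it held 0.657, 0.565 and 0.265 kb in WT and 1.06, 1.22 and 0.795 kb in DKO. DKO thus lay below WT on day 0 and above it on day 9, without overlap on either day. When scaled, the libraries overlapped for Timp3 on day 6 (-0.154 kb) and for Timp4 on day 9 (0.337 kb). Timp3 on day 9 and Timp4 on day 0 stayed apart. Timp1, Timp3 and Timp4 lie inside introns of Syn1, Syn3 and Syn2, so a peak there can belong to either gene.

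The strength of the best peak was compared as well. For each gene and library, the highest-ranking −log10 q in the span was taken as a percent of the list, with 100 for no peak. By the same exact permutation test, 9 of 42 members (21.4%) had a weaker best peak in DKO and 0 a stronger one, against 3.36% and 0.164% of all genes. The lists differ in length, and a shorter list raises this percent for the same rank. With the best 20000 peaks of each library, 2 of 29 members passed as weaker, against 0.530% of all genes. These were Mmp2 (22.8 points, adjusted exact permutation p = 0.0244) and Mmp27 (16.8 points, 0.0381 by the same test). In the full lists, Mmp2 had ranks of 1605, 2732 and 1619 in WT and 5337, 3084 and 4087 in DKO on day 3, and 3154, 3158 and 6487 against 11287, 11758 and 13921 on day 6. The WT ranks were the stronger on both days without overlap, as they were on day 9, and the difference over the 4 days was 7.18 percentage points of the list (adjusted exact permutation p = 0.0196). It was 15.3 points for Timp1 (adjusted exact permutation p = 0.0167), 30.1 for Mmp3 (0.0222 by the same test) and 5.13 for Mmp27 (0.0128). For Adamts5, Timp2, Adamtsl1, Adamts7 and Mmp23 it was between 3.74 and 19.3 points. Mmp23 and Adamts7 missed the threshold without DKO day 0 replicate 2 (adjusted exact permutation p = 0.0534 and 0.0634).

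From day 0 to day 9, over both genotypes, 5 members fell and 7 rose, against 14.8% of all genes that fell and 16.4% that rose. The test permuted day within genotype, with 400 relabellings and a smallest p of 0.005. Timp3 fell from 8.96 to 3.31 kb (adjusted exact permutation p = 0.0352). Its WT libraries held 6.88, 8.84 and 7.97 kb on day 0 and 0.736, 0.414 and 0.397 kb on day 3, far apart. Adamtsl3 fell from 5.43 to 1.55 kb (adjusted exact permutation p = 0.0203), with 4.48, 6.42 and 5.04 kb in WT and 3.86, 9.39 and 3.38 kb in DKO on day 0 and 1.03, 1.45 and 2.90 kb in WT and 1.57, 1.36 and 0.992 kb in DKO on day 9, which did not overlap. Adamts7 fell from 5.73 to 2.83 kb, with 4.36, 5.83 and 3.84 kb in WT and 3.99, 10.8 and 5.53 kb in DKO on day 0 and 1.94, 2.94 and 2.77 kb in WT and 3.32, 3.23 and 2.80 kb in DKO on day 9. Adamts6, linked to microfibrils, fell from 7.64 to 5.32 kb, with 7.74, 8.09 and 7.85 kb in WT and 5.61, 9.11 and 7.45 kb in DKO on day 0 and 4.20, 6.36 and 5.89 kb in WT and 5.23, 5.19 and 5.03 kb in DKO on day 9. Within each genotype all day 9 libraries of Adamts7 and Adamts6 lay below all day 0 libraries. Adamts13, which cleaves von Willebrand factor and whose span overlaps Rexo4 and Cacfd1, fell from 0.640 to 0.146 kb, with 0.113, 0.691 and 0.254 kb in WT and 0.623, 1.51 and 0.647 kb in DKO on day 0 and 0.0310, 0.184 and 0 kb in WT and 0.147, 0.218 and 0.297 kb in DKO on day 9. Among the genes that rose, Mmp28, also named epilysin, went from 1.98 to 6.69 kb. It held 0.728, 1.45 and 1.37 kb in WT and 1.33, 5.19 and 1.79 kb in DKO on day 0, and 4.97, 7.18 and 5.72 against 8.51, 7.77 and 5.99 kb on day 9. DKO day 0 replicate 2 was the high value of day 0 and within the day 9 range. Adamts15 rose from 4.24 to 9.14 kb, with 3.45, 4.48 and 3.79 kb in WT and 3.96, 5.34 and 4.42 kb in DKO on day 0 and 8.37, 9.75 and 8.76 kb in WT and 9.26, 9.69 and 9.03 kb in DKO on day 9. Adamtsl2 rose from 1.97 to 5.62 kb and held 4.58, 5.50 and 6.14 kb in WT and 6.96, 5.15 and 5.41 kb in DKO on day 9. The day 0 and day 9 libraries of Adamts15 and Adamtsl2 lay apart in both genotypes. Adamts9 rose from 3.11 to 7.59 kb and Adamtsl4 from 4.40 to 7.41 kb. Adamts1 rose from 4.54 to 5.39 kb, with 3.88, 4.55 and 4.30 kb in WT and 4.52, 5.51 and 4.50 kb in DKO on day 0 and 4.76, 4.90 and 5.95 kb in WT and 5.42, 5.88 and 5.44 kb in DKO on day 9, and Timp4 rose from 0.230 to 0.761 kb (adjusted exact permutation p = 0.0481 for both). Without DKO day 0 replicate 2 the counts were 6 and 15, beside 14.6% and 31.0% of all genes. Adipocyte markers, given for comparison, rose in 8 of 9 and brown adipocyte markers in 6 of 7 tested genes, and macrophage markers fell in 7 of 8. Of the 8 brown adipocyte markers listed, Ucp1 had no peak in any library and was not tested. Cidea did not rise, at 0.597 kb on day 0 and 0.628 kb on day 9 (adjusted exact permutation p = 0.964).

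**Figure D4:**
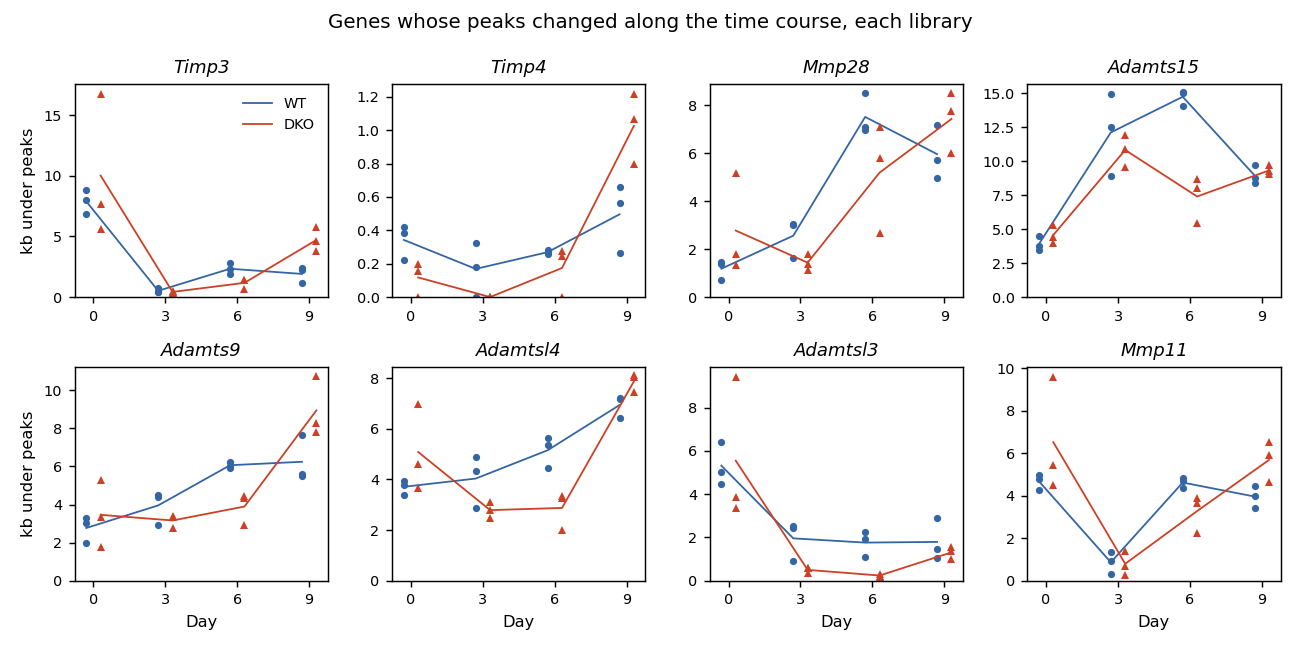
Length under H3K27ac peaks in kb (y axis, from 0) by day (x axis) for 8 genes that changed along the time course or between genotypes on day 9. Circles are WT and triangles DKO libraries, 3 per group, and lines join group means. Timp3 drops between day 0 and day 3 in both genotypes, and Mmp28, Adamts9 and Adamtsl4 are higher on day 9 than on day 0.

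The genotype difference itself changed with the day for 5 members, against 17.1% of all genes, by the exact permutation test of the variance among the daily differences. Timp4 had adjusted p = 0.0171 in this exact permutation test, with daily differences of DKO minus WT of -0.225, -0.169, -0.0950 and 0.530 kb on days 0, 3, 6 and 9. Mmp17 held 0.455, 0.371 and 0.588 kb in WT and 0.204, 0.252 and 0.167 kb in DKO on day 6 and 0.241, 0.429 and 0.400 kb in WT and 0.753, 0.453 and 0.419 kb in DKO on day 9, apart on day 6 and overlapping on day 9. Its differences were 0.351, -0.315, -0.264 and 0.185 kb on days 0, 3, 6 and 9. Adamtsl4 held 5.38, 4.44 and 5.64 kb in WT and 3.26, 3.35 and 2.02 kb in DKO on day 6 and 6.42, 7.22 and 7.18 kb in WT and 8.05, 8.13 and 7.45 kb in DKO on day 9, and its differences were 1.37, -1.25, -2.28 and 0.935 kb. Adamts9 held 5.94, 6.24 and 6.01 kb in WT and 4.34, 4.44 and 2.91 kb in DKO on day 6 and 5.48, 7.66 and 5.59 kb in WT and 10.8, 7.79 and 8.28 kb in DKO on day 9, and its differences were 0.690, -0.791, -2.17 and 2.70 kb. In both genes DKO lay below WT on day 6 and above it on day 9, without overlap. Mmp19, which degrades basement membrane, held 2.97, 2.68 and 3.27 kb in WT and 1.61, 1.68 and 1.53 kb in DKO on day 6 and 1.26, 1.78 and 1.85 kb in WT and 3.17, 2.63 and 2.20 kb in DKO on day 9, and its differences were 0.318, -0.308, -1.36 and 1.04 kb. In each of these 5 genes the DKO mean lay below WT on days 3 and 6 and above it on day 9. None of the 5 passed when length was scaled to covered length, and Adamtsl4 and Mmp17 missed the threshold without DKO day 0 replicate 2 (adjusted exact permutation p = 0.0663 and 0.0537).

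Within the genes, regions at the start and in introns were compared. On day 6, 402 merged regions of the members were called in any library. Of these, 50 (12.4%), in 18 members, had a peak in every WT library and in 0 of the 3 DKO libraries, and 0 the other way round, against 8.82% and 0.0756% of all regions. Adamts12 and Adamtsl1 held 9 each, Adamts17 and Mmp2 5 each, Adamts5 4 and Mmp3 3. Of 28 promoter regions, with a summit within 1 kb of a transcript start, that all WT libraries called on day 6, 17 were called in all DKO libraries and 3 in none. Of 141 intronic regions, 49 were called in all DKO libraries and 42 in none. These counts by position were not made over all regions, so they cannot show whether the members differ from other genes. By length, 17 of 34 members with a peak within 1 kb of the gene start lay lower in DKO on day 6, against 46.7% of all genes, with DKO at a median 41.5% of WT plus DKO length (43.9% in all genes). In the rest of the span it was 31 of 41 members, against 51.1% of all genes, with a median of 23.8% (33.1% in all genes). Regions near each other share their gene and are not replicates, and the difference between start and rest was not tested.

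Other genes of the same system were counted by lists. On day 6, 7 of 8 ADAM proteases, 6 of 6 tested genes of plasminogen activation and 13 of 14 other matrix proteases lay lower in DKO without overlap, beside the 59.6% of all genes. So did 6 of 8 other inhibitors and activators and 4 of 7 tested substrates of ADAMTS enzymes. None of them passed the adjusted test over the 4 days. Plat, tissue plasminogen activator, was 2.31 kb in WT and 0.235 kb in DKO on day 6, and Fbn1, the microfibril protein fibrillin-1 that ADAMTS-like proteins bind, was 115 and 32.4 kb. Their best peaks differed by 21.9 points (adjusted exact permutation p = 0.0714) for Plat and 4.83 points (adjusted p = 0.00905) for Fbn1. Reck, a membrane inhibitor of MMPs, was 5.2 and 2.15 kb, and Bmp1, the procollagen C-proteinase, 12.1 and 3.33 kb. Adipocyte markers lay lower in DKO on day 6 without overlap in 3 of 9 genes and higher in 0, and preadipocyte markers lay lower in 7 of 9. The 3 were Pparg at 25.7 kb in WT and 17.4 kb in DKO, Lpl at 19.5 and 12.6 kb, and Lipe at 14.4 and 13.0 kb. Adipoq, which encodes adiponectin, was at 5.24 and 5.21 kb. Slc2a4 and Cidec had higher DKO means, at 0.991 and 1.70 kb and at 6.21 and 7.08 kb, with overlap.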

How the data were processed

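H3K27ac ChIP-seq peak lists of 24 libraries were used. The 16 input samples have no file here, and which input served as control for which library is not given in the sources used here. Per the submitters' processing notes, the authors used bcl2fastq 2.17, cutadapt 1.18, BWA 07.17 and MACS2 2.1.1.20160309 with mm10 (GRCm38). The deposited lists hold, for each peak of each library, a fold enrichment over background, a −log10 p-value and a −log10 q-value, and were called per library. The fold ratio served only to describe depth. A list has no read counts, so precision rests on the 3 libraries of a group.

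Peak bases were summed from 5 kb upstream of each GENCODE M21 protein-coding gene to its end, and genes with a peak in at least 3 libraries were tested with exact permutation tests (160000 relabellings over the 4 days, smallest p 1.25e-05) and Benjamini-Hochberg adjustment at 0.05. The change with day was tested one-sided and the other tests two-sided. Spans can overlap other genes, and a peak in shared bases counts for each gene. Lpcat2 overlaps the span of Mmp2, Mrpl52 that of Mmp14, Tbc1d2b that of Adamts7, and 2 genes each those of Mmp19 and Adamts9. Genes named with every value were those named in the study, the TIMPs, those past an adjusted test and those with the largest differences of each day and of day 0 against day 9. Adamts14, Adamts16, Adamts17, Mmp8, Mmp14 and list genes were chosen as examples after their values were seen. The members, lists and tests were chosen with earlier results of these data known. Alternatives were other spans, 20000 peaks per library, −log10 q of at least 5, 250 bp around summits, scaling to covered length, left-out libraries and a replicate block. The test was checked on simulated data. Python 3.11.15, numpy 2.4.6, pandas 2.3.3, scipy 1.17.1 and matplotlib 3.10.9 were used.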

Additional observations from a re-analysis of the deposited data

Results flagged for a closer look

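For 5 genes the difference between DKO and WT was not the same on the 4 days, by the exact permutation test of the variance among the daily differences with Benjamini-Hochberg adjustment. These are 11.9% of the members tested, against 17.1% of all genes. The adjusted exact permutation p was 0.0171 for Timp4, 0.0244 for Mmp17, 0.0281 for Adamtsl4, 0.0356 for Mmp19 and 0.0370 for Adamts9. In these genes the DKO mean lay below WT on day 6 and above it on day 9, as did the covered length of the libraries, and the part of the covered length in this was not tested beyond the scaling, under which none of the 5 passed.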

How the results depend on the processing

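Counts below are of members called, out of 42, or of 29 with 20000 peaks per library, 41 with −log10 q of at least 5 and 50 with no filter on genes. The share of all genes called moves with the setting too. Where no such share stands beside a count, the count is not read as a result about the members. When scaled, 8 of the 33 members that lay lower on day 6 turned their sign, as did Adamts15 over the 4 days (-1.90 kb, and 0.0403 kb scaled). Over the 4 days, 0 members passed, against 7 with 250 bp around summits, 15 when scaled to covered length, 1 with 20 kb upstream (of 44) and 4 without DKO day 0 replicate 2. Of all genes, 5.69% passed as lower and 9.19% as higher when scaled, and 1.30% passed as lower without DKO day 0 replicate 2. On day 0, 5 did not overlap, against 2 with 20000 peaks per library, 10 with 250 bp around summits, 13 when scaled (11 lower) and 15 without DKO day 0 replicate 2, and 7 to 21 with a replicate number left out. Of all genes, 0.248% lay lower and 16.3% higher on day 0 with 20000 peaks, and 10.6% and 10.9% when scaled. On day 3, 9 did not overlap, against 3 with 20000 peaks, 14 when scaled, 32 without WT day 3 replicate 3, and 11 to 32 with a replicate number left out. Of all genes, 10.7% lay lower and 2.47% higher on day 3 with 20000 peaks, and 7.73% and 12.2% when scaled. On day 6, 33 did not overlap, against 17 with 20000 peaks (36.2% of all genes). On day 9, 6 did not overlap, all higher in DKO, against 10 when scaled (8 lower and 2 higher, with 13.5% and 13.4% of all genes), 2 (of 38) with bases in no other gene span, and 15 to 20 with a replicate number left out (11 lower and 7 higher without replicate 1). With 2 libraries a group, no overlap is easier to reach. For day 0 against day 9, 12 passed, against 4 with 20000 peaks, 7 with 250 bp, 20 when scaled and 21 without DKO day 0 replicate 2. For the change with day, 5 passed, against 3 with −log10 q of at least 5, 3 with no filter on genes, 11 without WT day 3 replicate 3, and 0 with 20000 peaks, 250 bp around summits or scaling. For the best rank, 9 passed, against 2 with 20000 peaks, 5 with −log10 q of at least 5 and 4 with no filter. With a replicate number left out these 3 tests called 0 members, since fewer relabellings give a coarser smallest p.

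Same-numbered WT and DKO libraries did not deviate together throughout. Over 12 pairs r was -0.837 to 0.898, and 4 pairs were over 0.1. For replicates 1, 2 and 3, r was 0.831, 0.784 and -0.143 on day 0 and -0.837, 0.898 and 0.661 on day 3. On days 6 and 9 it was negative in each pair, so the numbers were not read as a pairing. In the replicate block a gene was called on a day when all 3 same-numbered differences had the same sign. This is easier to reach than no overlap. With the replicate block (4096 relabellings) the counts were 16 on day 0 (4 lower and 12 higher, with 1.51% and 39.6% of all genes), 27 on day 3 (26 lower and 1 higher, with 28.7% and 2.55%), 11 on day 9 (all higher, with 39.2%), 0 for day 0 against day 9, 1 for the change with day and 0 for the best rank.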
